A study of Mus musculus with 12 samples.

Results

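The voltage-gated sodium channel genes described here are 8 genes, chosen by symbol: the alpha subunit genes Scn1a, Scn2a, Scn3a, Scn8a and Scn9a and the beta subunit genes Scn2b, Scn3b and Scn4b. All 8 were found among the 54735 gene symbols of each library. An alpha subunit is the large protein that forms the sodium-conducting pore and carries the voltage sensors. A beta subunit is a small membrane protein with an extracellular immunoglobulin-like domain that joins the alpha subunit, alters its gating and its placement at the cell surface, and can act in cell adhesion. These channels carry the rising phase of the action potential, and in the embryonic cortex Scn3a is known as the main early alpha gene, whereas Scn1a, Scn2a and Scn8a become prominent as neurons mature. Alpha subunit genes are also known for holding minor introns, a rare intron class removed by the minor spliceosome, of which the U11 small nuclear RNA is a part. Intron sequences were not used here, so the minor introns themselves were not checked.

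RNA was measured in the pallium, the dorsal telencephalon from which the cortex forms, of 12 C57/Bl6 mouse embryos at E13.5, with 4 embryos in each of 3 genotypes. Control embryos were Rnu11 wt/flx, Trp53 wt/wt, with 1 floxed allele of the U11 gene. Embryos of the cKO group were Rnu11 flx/flx, Trp53 wt/wt. Embryos of the dKO group were Rnu11 flx/flx, Trp53 flx/flx, so that the gene for p53 was floxed as well. All 12 embryos carried Emx1-Cre, a recombinase driven in pallial progenitors and inherited by the cells they produce, so the controls are heterozygous for the deletion, and cells of other origin in the dissected tissue (incoming interneurons, microglia, vessels) keep their alleles. The 12 libraries used here include no embryo with floxed Trp53 and intact Rnu11.

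Values are TPM, transcript abundance per gene scaled for transcript length to a sum of 1000000 per library, so levels can be set side by side between genes. TPM keeps no depth, and the depth of each library is unknown. The targeted genes matched the labels: Rnu11 ran from 521 to 724 TPM in control and from 115 to 199 TPM over the 8 mutant libraries, and Trp53 from 0.92 to 1.49 TPM in dKO against 2.63 to 6.37 TPM in the other 8. Pallial markers were present in each library, with radial glia genes such as Pax6 and neuron genes such as Tubb3 above 0 throughout. A filter kept the 11764 genes whose mean over all libraries was 1 TPM or more. Their median log2 difference from control was 0.25 in cKO and -0.01 in dKO, and dKO differed from cKO by -0.26, so a typical gene of this set stood higher in cKO. TPM is a share of the library, so this is a relative rise. Nuclear protein-coding genes held 14.6% to 16.3% of TPM in control, 16.1% to 20.0% in cKO and 14.4% to 15.5% in dKO. With their sum made equal in each library, the median difference of cKO from control was 0.12. Median-ratio rescaling, which multiplies each library by 1 factor to remove this shift, brought all 3 medians to within 0.01 of 0, and member calls are given below both ways.

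The 4 alpha genes Scn3a, Scn2a, Scn1a and Scn9a lie in 1 cluster on chromosome 2 with Scn7a, in that order, over 1328 kb (GRCm38, the assembly also called mm10). Scn3a spans chr2:65457118-65567627 on the minus strand and Scn2a chr2:65620771-65767447 on the plus strand, so these neighbours are transcribed away from each other. Scn1a spans chr2:66270778-66440840 and Scn9a chr2:66480080-66634962, both on the minus strand. Scn8a is on its own at chr15:100869858-101045938 on the plus strand. The 3 beta genes are all on chromosome 9 and on the plus strand: Scn3b at chr9:40269217-40291618, Scn2b at chr9:45117782-45130070 and Scn4b at chr9:45138395-45154152, which starts 8.32 kb after the end of Scn2b. In GENCODE M21 the longest coding transcript of each of the 5 alpha genes has 27 exons and 5841 to 6027 coding bases, whereas those of the beta genes have 4 to 7 exons and 645 to 684 coding bases.

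Promoter sequence was held for 6 of the 8 genes (Scn1a, Scn2a, Scn8a, Scn9a, Scn2b and Scn4b), with 8 start sites in all. The 250 bases upstream of a start site are shown for 4 of them because these members all stood higher in cKO yet the windows shown differ in base composition. They come from RefSeq on GRCm38.p6 and are written 5′ to 3′ on the gene's own strand, and capitals mark CG dinucleotides, the sites of DNA methylation.
Scn2a: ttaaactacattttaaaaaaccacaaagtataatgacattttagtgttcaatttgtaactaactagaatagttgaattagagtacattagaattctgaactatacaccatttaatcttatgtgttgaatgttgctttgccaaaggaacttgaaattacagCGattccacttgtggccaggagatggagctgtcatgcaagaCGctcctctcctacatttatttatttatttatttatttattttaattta
Scn1a: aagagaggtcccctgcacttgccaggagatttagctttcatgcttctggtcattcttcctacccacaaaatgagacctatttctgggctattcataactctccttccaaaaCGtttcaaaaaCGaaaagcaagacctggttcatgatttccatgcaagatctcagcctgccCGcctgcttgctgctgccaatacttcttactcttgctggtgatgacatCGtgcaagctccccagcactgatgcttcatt
Scn2b: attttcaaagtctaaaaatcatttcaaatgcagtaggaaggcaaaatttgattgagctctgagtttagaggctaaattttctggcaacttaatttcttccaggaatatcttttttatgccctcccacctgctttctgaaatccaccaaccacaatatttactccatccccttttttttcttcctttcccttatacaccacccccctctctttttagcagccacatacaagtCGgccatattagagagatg
Scn8a: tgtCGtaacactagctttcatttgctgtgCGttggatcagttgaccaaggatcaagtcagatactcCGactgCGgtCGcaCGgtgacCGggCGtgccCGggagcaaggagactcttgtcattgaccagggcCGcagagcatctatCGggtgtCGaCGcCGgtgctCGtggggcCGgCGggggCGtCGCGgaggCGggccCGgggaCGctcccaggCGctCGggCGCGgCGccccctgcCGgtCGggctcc
The windows are chr2:65620519-65620768 for Scn2a (its first start site), chr2:66440838-66441087 for Scn1a, chr9:45117626-45117875 for Scn2b and chr15:100870395-100870644 for Scn8a (its first start site). Scn2a held 2 CG, Scn1a 4 and Scn2b 1, against a median of 6 over 32851 promoters, and their GC contents were 29.6%, 46.8% and 38.4%. Scn8a held 30 CG at 68% GC, more than 94.1% of all promoters, and Scn4b held 23. The second start sites of Scn2a and Scn8a, not shown, each held 9 CG at 53.2% GC. The values of these 2 genes thus belong to the start site and not to the gene. The 8 member windows of 300 bases (250 before and 50 after the start) were searched on both strands for 4 motifs: CAGATG and CAGCTG, the E-boxes bound by proneural factors, CAGCACC, a core of the element bound by the neuronal repressor REST, and the p53 half-site. These letters occurred in 17.2%, 16.3%, 7.14% and 8.36% of all promoters of that length, and in none of the 8 windows.

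In control pallium the family was led by Scn3a and Scn3b. Scn3a, the early alpha gene, stood at 2.49 ± 0.349 TPM (SD, n = 4, as for all means below) and Scn3b, a beta gene that joins alpha subunits without a disulfide bond, at 1.14 ± 0.146 TPM. Scn8a and Scn2a followed at 0.703 ± 0.204 and 0.656 ± 0.177 TPM, and their order differed between embryos, with Scn8a higher in 2 of 4. Scn1a came next at 0.372 ± 0.0645 TPM, below Scn2a in each control embryo. The lowest were Scn2b at 0.112 ± 0.0251, Scn9a at 0.0647 ± 0.0193 and Scn4b at 0.0218 ± 0.00602 TPM. Ranges of neighbours in this order were separate except for Scn8a against Scn2a and Scn2b against Scn9a. Scn3a made up 58.1% ± 4.94 of the summed alpha level in control, 56.1% ± 2.26 in cKO and 60.6% ± 4.96 in dKO, and the 3 groups overlapped. Scn3a led in all 12 embryos, and Scn3b held the second place in each control and cKO embryo. In dKO, Scn3b and Scn2a were level, at 0.985 ± 0.34 and 0.981 ± 0.117 TPM, with Scn3b the higher of the pair in 1 of 4 embryos.

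Between cKO and control, the question is how these genes changed with loss of U11. Each of the 8 members stood higher in every cKO embryo than in any control embryo, with ratios of group means from 1.60 (Scn8a) to 3.42 (Scn4b) and a median of 2.39. Over all 39624 genes with a value above 0 in any library, cKO lay above control without overlap for 17.4% and below it for 0.374%. The median ratio of means was 1.32 over the 31476 genes that have one. Only 3 members, Scn2a, Scn3a and Scn3b, passed the filter of 1 TPM, and Scn2a passed it through its cKO level, so a difference was built into its passing. All 3 rose in the limma fit on log2(TPM + 1), where 34.3% of genes were called higher and 1.09% lower. For Scn2a the fit without a filter, which its cKO level does not select, is the one to read, and it was called higher there too (limma adjusted p = 0.000733). In the filtered fit after median-ratio rescaling the shares were 3.96% higher and 3.26% lower, and the 3 members were still called higher. The other 5 members were tested in the same fit without a filter, in which 11% of genes were called higher and 0.29% lower. There Scn1a, Scn2b and Scn4b rose and Scn8a and Scn9a did not pass, which makes 6 of 8 members called higher and 0 lower.

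Scn3a was at 2.10, 2.48, 2.45 and 2.95 TPM in controls 1 to 4, at 4.98, 5.07, 4.85 and 4.26 TPM in cKO embryos 1 to 4, and at 2.37, 3.33, 3.75 and 3.83 TPM in dKO embryos 1 to 4. The cKO embryos lay above all 8 others, and dKO ran from within the control range to above it. The log2 difference of cKO from control was 0.73 ± 0.116 (SE; limma adjusted p = 0.00143), the 412th highest of 11764 genes. After median-ratio rescaling it was 0.49 (limma adjusted p = 0.0431), after quantile normalization 0.45 (limma adjusted p = 0.056), and in the fit without a filter after median-ratio rescaling it did not pass (limma adjusted p = 0.0941). Gm13595, annotated on the opposite strand within Scn3a, had means of 0.273 TPM in control, 0.545 TPM in cKO and 0.28 TPM in dKO. The libraries were stranded, but the counting is not stated to use strand, so whether reads of the pair were kept apart is unknown.

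Scn2a, the alpha gene found early along the axons of cortical excitatory neurons, was at 0.569, 0.921, 0.551 and 0.585 TPM in control, 1.64, 1.74, 1.65 and 1.58 TPM in cKO, and 0.816, 1.04, 0.991 and 1.08 TPM in dKO. Control embryo 2 stood apart from its group, and the other 11 values fall into 3 separate steps by genotype. The cKO difference was 0.69 ± 0.0935 on the log2 scale in the filtered fit (SE; limma adjusted p = 0.000542). The call was kept without a filter (limma adjusted p = 0.000733). In the filtered fit the difference stayed past the threshold under each scaling tried, with 0.52 after median-ratio rescaling (limma adjusted p = 0.00958) and 0.44 after median-shift centring (limma adjusted p = 0.0349). Without a filter, Scn2a was among the 2 members still called after median-ratio rescaling and the 5 still called after protein-coding rescaling. Centring was not combined with that fit.

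Scn1a, an alpha gene best known from inhibitory neurons of the mature cortex, was at 0.293, 0.43, 0.419 and 0.345 TPM in control, 0.787, 1.03, 0.831 and 0.703 TPM in cKO, and 0.293, 0.354, 0.341 and 0.34 TPM in dKO. Its cKO values stood apart from both other groups, which overlapped. The log2 difference of cKO from control was 0.42 ± 0.0703 in the fit without a filter (SE; limma adjusted p = 0.00492), and 0.30 after median-ratio rescaling, where it did not pass (limma adjusted p = 0.0701).

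Scn8a, an alpha gene of the mature axon initial segment and node, was at 0.911, 0.633, 0.45 and 0.817 TPM in control, 0.917, 1.56, 0.999 and 1.02 TPM in cKO, and 0.525, 1.10, 0.52 and 0.458 TPM in dKO. The lowest cKO value was only just above the highest control value, and replicate 2 was the highest in both mutant groups. The difference of 0.32 ± 0.139 did not pass in the fit without a filter (SE; limma adjusted p = 0.169). Scn9a, an alpha gene best known from peripheral sensory neurons, was at 0.0459 to 0.0827 TPM in control, 0.103 to 0.177 TPM in cKO and 0.079 to 0.243 TPM in dKO. Its cKO difference of 0.10 ± 0.0437 did not pass either (SE; limma adjusted p = 0.168).

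Among the beta genes, Scn3b was at 0.951, 1.23, 1.11 and 1.27 TPM in control, 3.27, 3.25, 2.68 and 2.52 TPM in cKO, and 0.542, 1.03, 1.37 and 1.00 TPM in dKO. Scn3b has been described in human cells as a gene induced by p53. Its cKO values were all above the other 8, and dKO embryos lay on both sides of the controls. The cKO difference of 0.87 ± 0.126 was the largest in the family on this scale (SE; limma adjusted p = 0.000744) and the 242nd highest of 11764 genes. It passed under each scaling tried, with 0.67 after median-ratio rescaling (limma adjusted p = 0.0118).

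Scn2b, a beta gene whose protein binds alpha subunits through a disulfide bond, was at 0.133, 0.129, 0.107 and 0.0784 TPM in control, 0.271, 0.362, 0.288 and 0.252 TPM in cKO, and 0.237, 0.152, 0.182 and 0.221 TPM in dKO. The 3 groups did not overlap, with dKO between the others. The cKO difference of 0.22 ± 0.0419 passed in the fit without a filter (SE; limma adjusted p = 0.00897) but not after median-ratio rescaling (0.16, limma adjusted p = 0.091). Scn4b, the disulfide-linked partner gene next to Scn2b, was at 0.0155 to 0.03 TPM in control, 0.0571 to 0.0997 TPM in cKO and 0.018 to 0.0647 TPM in dKO. These are among the lowest values in the family, so the difference of 0.07 ± 0.0167 on the log2(TPM + 1) scale (SE; limma adjusted p = 0.0199) understates a 3.42-fold ratio of means. Its call was lost without control embryo 2, 3 or 4 (limma adjusted p from 0.053 to 0.0568) and after median-ratio rescaling (limma adjusted p = 0.1).

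**Figure D1:**
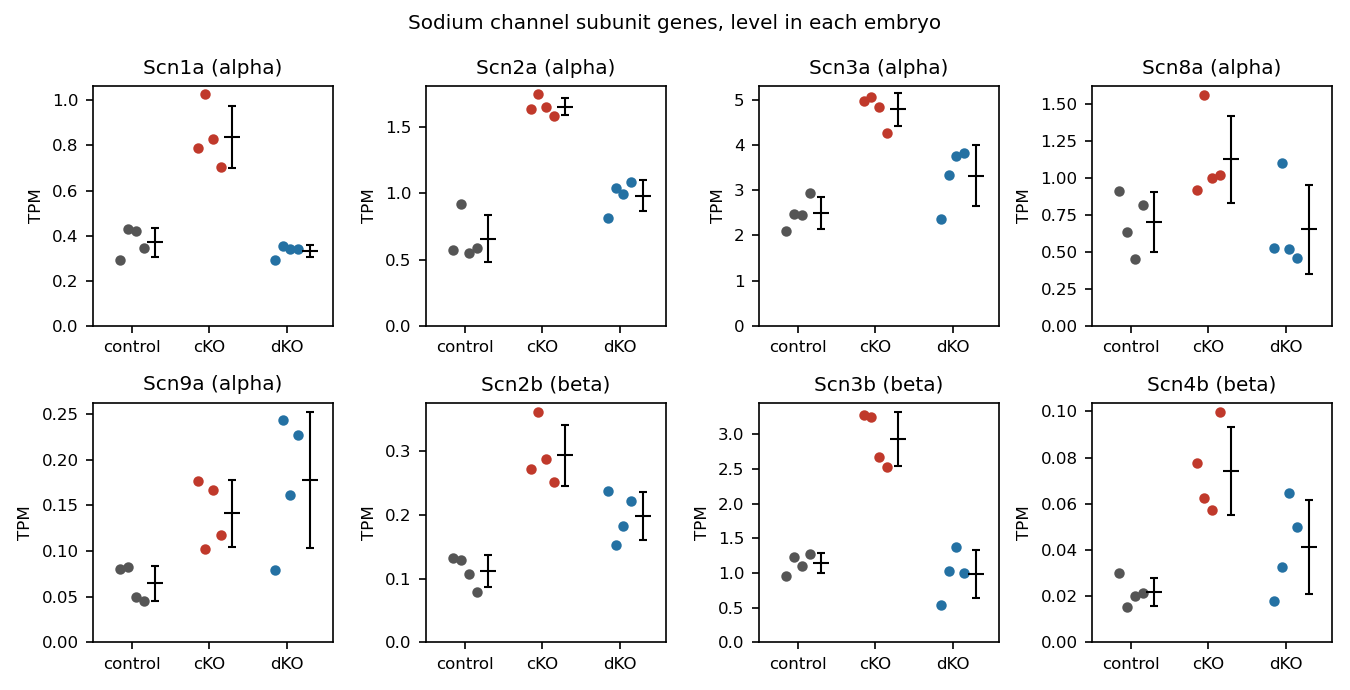
Level of each sodium channel subunit gene in each embryo, in TPM, by genotype; points are embryos and the bar beside them is the mean ± SD (n = 4). All 8 genes have their 4 cKO points above their 4 control points, whereas dKO points lie at control level for Scn1a and Scn3b and between the groups for Scn2b; for Scn2a they lie below all cKO points and overlap the controls through control embryo 2.

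Between dKO and control, the question is which differences persisted with Trp53 floxed beside Rnu11. None of the 8 members was called in either direction by limma, with or without the filter. Over all genes 1.79% were called higher and 3.4% lower in the filtered fit, and 0.681% and 0.669% in the fit without a filter. After median-ratio rescaling 3.95% were called higher and 5.05% lower in the filtered fit, and again no member was called. As deposited, without rescaling, Scn2a (0.26 ± 0.0935 SE), Scn3a (0.30 ± 0.116 SE), Scn9a (0.14 ± 0.0437 SE) and Scn2b (0.11 ± 0.0419 SE) were higher in dKO at an unadjusted p under 0.05. Their limma adjusted p-values were 0.133, 0.172, 0.169 and 0.311. An unadjusted p under 0.05, in either direction, was found for 2368 of 11764 genes in the filtered fit and 4853 of 39624 without a filter. Scn2b was the 1 member whose dKO values all lay above the control values, a pattern found for 3.69% of genes without a filter, and no member lay wholly below control (4.59% of genes). dKO embryo 1 was the lowest of its group for Scn1a, Scn2a, Scn3a, Scn9a, Scn3b and Scn4b. Without it Scn3a rose by 0.41 in dKO against control in the filtered fit (limma adjusted p = 0.0315) but did not pass without a filter (limma adjusted p = 0.0665), and Scn9a by 0.18 in the fit without a filter (limma adjusted p = 0.0391). Scn1a, Scn8a and Scn3b had differences of -0.04 ± 0.0703, -0.05 ± 0.139 and -0.12 ± 0.126 (SE), with limma adjusted p-values of 0.864, 0.936 and 0.652.

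Between dKO and cKO, which share the floxed Rnu11 alleles, the question is what the Trp53 alleles changed. Scn1a, Scn2a, Scn3a, Scn2b and Scn3b (5 of 8) were lower in every dKO embryo than in any cKO embryo, a pattern found for 17.2% of genes without a filter. The 3 members that passed the filter fell in dKO, where 38.8% of genes were called lower and 0.612% higher. Without a filter the same 3 members, Scn2a among them, and Scn1a fell, which makes 4 of 8, against 14.5% of genes called lower and 0.331% higher. Scn3b fell by 1.00 ± 0.126 on the log2 scale (SE; limma adjusted p = 0.000302), to 0.336 of its cKO mean. In this contrast it ranked 11564th from the highest of 11764 genes. After median-ratio rescaling Scn3b still fell, by 0.79 (limma adjusted p = 0.00763), where 4.22% of genes were called lower and 2.72% higher. Scn1a fell by 0.46 ± 0.0703 (SE; limma adjusted p = 0.00267) and by 0.34 after median-ratio rescaling (limma adjusted p = 0.043).

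Scn2a and Scn3a behaved differently under rescaling. Their values of -0.42 ± 0.0935 and -0.43 ± 0.116 (SE) passed as deposited (limma adjusted p = 0.0054 and 0.0131). After protein-coding rescaling they were -0.30 and -0.26 (limma adjusted p = 0.0942 and 0.28), and after median-ratio rescaling -0.24 and -0.17 (limma adjusted p = 0.182 and 0.458). The values of the 4 members that did not pass were -0.37 ± 0.139 for Scn8a, -0.11 ± 0.0419 for Scn2b, -0.05 ± 0.0167 for Scn4b and 0.04 ± 0.0437 for Scn9a (SE), with limma adjusted p-values of 0.102, 0.106, 0.0978 and 0.529. Scn9a was the 1 member with a higher mean in dKO than in cKO, and its groups overlapped. The comparisons with control and with cKO share libraries, so their values stand side by side here and were not correlated.

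**Figure D2:**
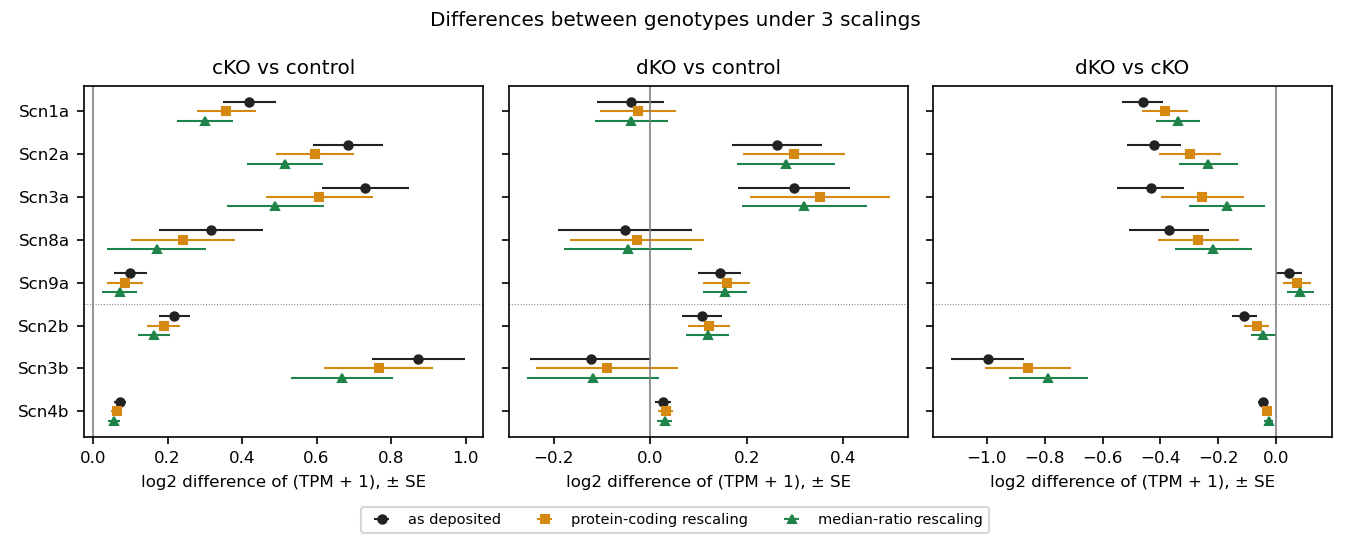
Log2 difference of (TPM + 1) between genotypes for each member, with its SE from limma, as deposited and after protein-coding or median-ratio rescaling; Scn2a, Scn3a and Scn3b come from the filtered fit and the others from the fit without a filter. In dKO against cKO, Scn3b stays at -0.79 or lower in all 3 scalings, whereas Scn2a and Scn3a move toward 0.

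Alpha and beta genes were set side by side through sums within each library, which a common factor of the library does not change once a ratio is taken. The alpha sum was 4.29 ± 0.417 TPM in control embryos, 8.54 ± 0.744 with cKO and 5.46 ± 0.926 with dKO. The beta sum was 1.27 ± 0.127, 3.30 ± 0.408 and 1.22 ± 0.336 TPM in the same order. The ratio of alpha to beta came to 3.55, 3.30, 3.18 and 3.45 in control embryos, 2.35, 2.59, 2.81 and 2.67 with cKO, and 5.13, 5.01, 3.57 and 4.67 in dKO. No embryo of one genotype fell within the range of another: cKO was lowest, control between, and dKO highest, although dKO embryo 3 was only just above control embryo 1. These ratios are a description with no test. They follow the leading pair, since Scn3a over Scn3b was 2.19 ± 0.127 in control embryos, 1.65 ± 0.132 with cKO and 3.55 ± 0.711 with dKO. With Scn3b left out of the beta sum the 3 groups overlapped, at 33.5 ± 9.89, 23.3 ± 1.39 and 23.5 ± 6.94. The share of Scn3b in the beta sum was 85.4% to 92.7% in control, 87.8% to 90.4% in cKO and 68% to 84.7% in dKO.

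Within the alpha genes the neighbours Scn2a and Scn1a parted in dKO. Scn2a over Scn1a took the values 1.94, 2.14, 1.32 and 1.69 in control embryos, 2.08, 1.70, 1.99 and 2.25 with cKO, and 2.78, 2.93, 2.91 and 3.18 in dKO. Control and cKO overlapped, and all 4 dKO embryos lay above both. Scn2a over Scn3a, the pair transcribed away from each other, was 0.266 ± 0.076 in control embryos, 0.346 ± 0.0183 with cKO and 0.30 ± 0.0345 with dKO, and the groups overlapped.

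**Figure D3:**
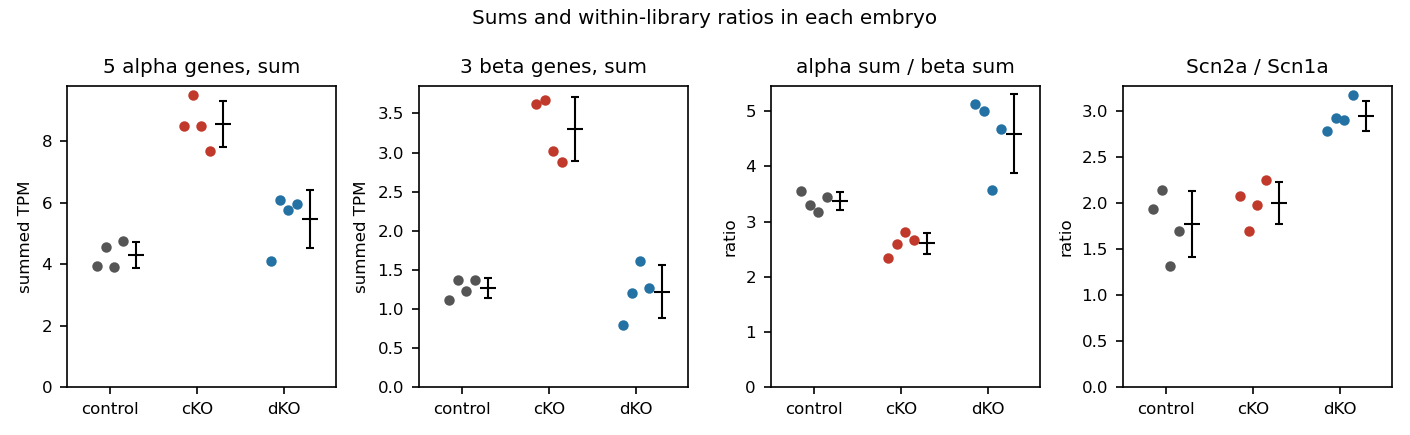
Summed TPM of the 5 alpha and the 3 beta genes, the ratio of the sums, and the ratio of Scn2a to Scn1a in each embryo; points are embryos and bars are mean ± SD (n = 4). The alpha to beta ratio separates the genotypes, with cKO at 2.35 to 2.81, control at 3.18 to 3.55 and dKO at 3.57 to 5.13.

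Sodium channel genes are neuronal genes, so their levels were set beside markers of the cell classes in the tissue. In bulk tissue, fewer cells of a type and less RNA per cell cannot be told apart. The sum of 11 neuron markers was 163 to 172 TPM in control embryos, 242 to 291 with cKO and 125 to 186 with dKO. In the filtered fit 7 of 10 tested neuron markers rose in cKO (34.3% of all genes) and 10 of 10 fell in dKO against cKO (38.8% of all genes). Nefm, with means of 1.00, 1.39 and 0.879 TPM in control, cKO and dKO, passed that filter through its cKO level. Without a filter 8 of 11 rose in cKO (11% of all genes). In dKO against cKO 7 of 11 fell there (14.5% of all genes). In the filtered fit after median-ratio rescaling 1 of 10, Gap43, rose (3.96% of all genes) and 3 of 10, Tubb3, Snap25 and Gap43, fell (4.22% of all genes). Gap43, a growth cone gene, was then at 0.71 and -0.63 on the log2 scale (limma adjusted p = 0.00702 and 0.0186). Deep-layer projection neuron markers (5 genes) summed to 119 to 147 TPM in control, 137 to 175 in cKO and 79.3 to 122 in dKO, so both mutant groups overlapped control. In dKO the overlap came from embryo 2 alone, and the others lay at 79.3 to 85.8 TPM. In dKO against control 1 of 5, Neurod6, was called lower in the filtered fit (3.4% of all genes). After median-ratio rescaling 2 of 5, Neurod2 and Neurod6, were called lower (5.05% of all genes), and without a filter 0 of 5 (0.669% of all genes). Other sums stood apart in cKO. Radial glia markers (8 genes) summed to 253 to 280 TPM in control, 298 to 351 in cKO and 274 to 280 in dKO. The ratio of the cKO to the control mean of this sum was 1.23, as was the median ratio of means over genes averaging 1 TPM or more. Of these 8, 2 (Fabp7 and Slc1a3) were called higher in cKO in the filtered fit and 1 (Hes5) lower, against 34.3% and 1.09% of all genes. After median-ratio rescaling 0 of 8 were called higher and 2 (Sox2 and Hes5) lower, against 3.96% and 3.26% of all genes. Cajal-Retzius markers (4 genes) summed to 15.2 to 22.2 TPM in control and 36.5 to 43.1 in cKO. Interneuron markers (6 genes) summed to 1.73 to 2.41 and 3.42 to 5.26 TPM, microglia markers (5 genes) to 5.92 to 6.81 and 20.9 to 29.4 TPM, and vessel markers (4 genes) to 7.11 to 9.58 and 13.9 to 18.7 TPM. Single genes carried much of a sum, as Reln held 35.1 of the mean 40.8 TPM of Cajal-Retzius markers in cKO. Dlx2, Dlx5, P2ry12 and Pdgfrb overlapped control. Without a filter, 3 of 4 Cajal-Retzius, 1 of 6 interneuron, 4 of 5 microglia and 3 of 4 vessel markers were called higher, against 11% of all genes. These counts are as deposited, without rescaling. In dKO the Cajal-Retzius, interneuron, microglia and vessel sums were 18.6 to 28.7, 1.68 to 3.63, 6.97 to 8.72 and 9.25 to 14.5 TPM, and none of these markers was at 0 in any library. Calb2, 1 of 4 Cajal-Retzius markers, was called higher in dKO than in control without a filter, against 0.681% of all genes. Its means were 1.96, 3.33 and 4.24 TPM in control, cKO and dKO. Of the interneuron, microglia and vessel markers 0 were called there. The part of these cell classes in the member differences was not tested.

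Relative to the neuron marker sum the members split. Scn2a was at 3.35 to 5.53 TPM per 1000 TPM of neuron markers in control, 6.0 to 6.81 in cKO and 5.56 to 6.55 in dKO, so both mutant groups lay above control and overlapped each other. Scn2b showed the same arrangement, at 0.456 to 0.783, 1.01 to 1.24 and 0.818 to 1.90. For Scn3a the values were 12.3 to 17.1, 17.0 to 20.0 and 17.9 to 23.0, where dKO lay above control and cKO overlapped both. Scn9a likewise was higher in dKO than in control, at 0.635 to 1.35 against 0.267 to 0.497, and its cKO values of 0.353 to 0.69 overlapped both. Scn4b was at 0.0934 to 0.176 in control, 0.215 to 0.397 in cKO, above control, and 0.145 to 0.398 in dKO, which overlapped both. Scn3b was at 5.59 to 7.41 in control embryos, 10.1 to 12.6 with cKO and 4.35 to 8.41 with dKO, with cKO above both other groups. Scn1a had the pattern of Scn3b, at 1.72 to 2.58, 2.80 to 3.53 and 1.90 to 2.35. Scn8a overlapped in all comparisons, at 2.76 to 5.36, 3.53 to 5.36 and 2.73 to 5.92. These relative levels are a description with no test.

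**Figure D4:**
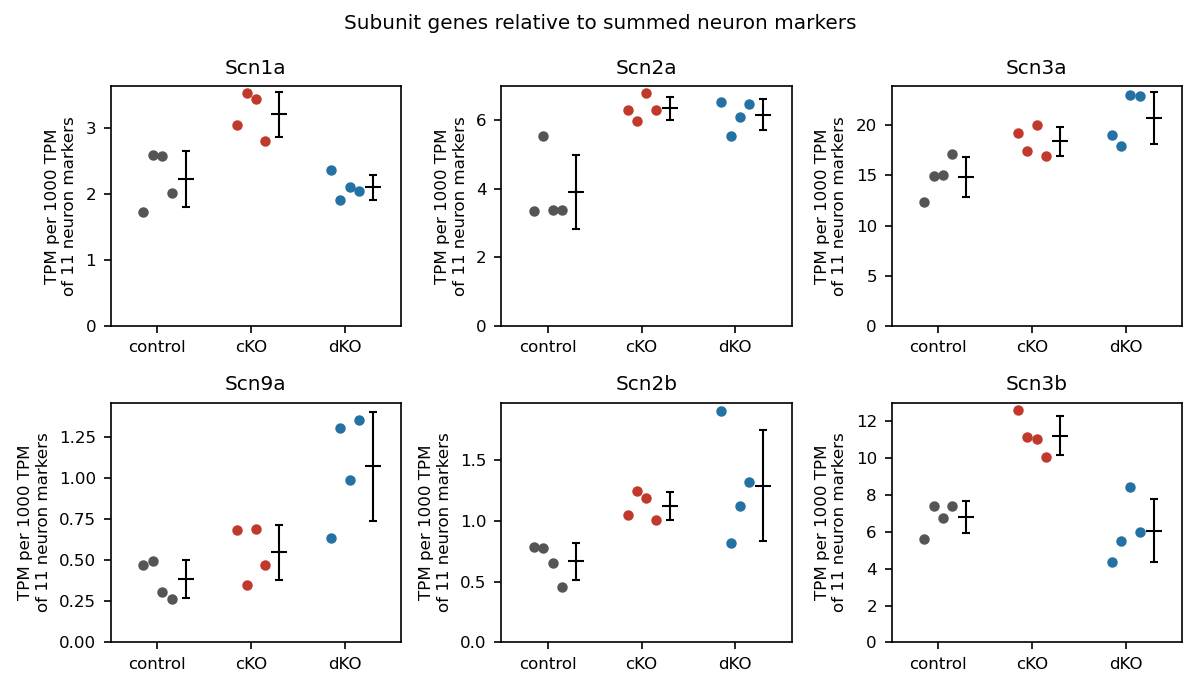
TPM of 6 subunit genes per 1000 TPM of 11 summed neuron markers in each embryo; points are embryos and bars are mean ± SD (n = 4). Scn2a stays above the controls in both mutant groups (5.56 or more against 5.53 or less), whereas Scn1a and Scn3b in dKO overlap the controls.

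Other genes of the family and the genes that work with these channels were taken from lists. Scn4a, the skeletal muscle alpha gene, and Scn10a, a sensory neuron alpha gene, were listed at 0 in all 4 controls. Scn4a, Scn7a, Scn10a and Scn11a did not pass the 1 TPM filter. In the fit without a filter limma called 0 of these 4 in any comparison, and 0 had an unadjusted p under 0.05. There 11% of all genes were called higher in cKO, 14.5% lower in dKO against cKO, and 0.681% higher and 0.669% lower in dKO against control. An unadjusted p under 0.05 was found for 10706 (cKO against control), 4853 (dKO against control) and 11216 (dKO against cKO) of 39624 genes. A count of 0 of 4 does not set these genes apart from other genes.

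Of the sodium leak channel complex, Nalcn is the pore-forming gene and Unc79, Unc80 and Fam155a encode its partners. Only Fam155a passed the filter, and only through its cKO level, with means of 0.73, 2.07 and 0.988 TPM in control, cKO and dKO, so its values are given from the fit without a filter. There it rose in cKO by 0.82 ± 0.104 (SE; limma adjusted p = 0.00109) and fell in dKO against cKO by 0.63 ± 0.104 (SE; limma adjusted p = 0.00371). In that fit 3 of 4 rose in cKO (Nalcn, Unc79 and Fam155a), where 11% of all genes did. Unc79 and Fam155a, 2 of 4, fell in dKO against cKO, where 14.5% of all genes did. In dKO against control 0 of 4 were called, against 0.681% of all genes higher and 0.669% lower. These counts are as deposited, without rescaling. Nalcn had 0.613 ± 0.0711 TPM in control embryos, 1.18 ± 0.142 with cKO and 1.03 ± 0.159 with dKO.

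Of 12 partners that anchor or regulate the channels at the axon initial segment and node, 7 were tested in the filtered fit. Ank3, Ank2, Nrcam, Fgf13 and Nedd4l rose in cKO (5 of 7, 0 lower, against 34.3% of all genes higher, with a median log2 difference of 0.49 against 0.25 over all tested genes). Ank3, the ankyrin-G scaffold that clusters sodium channels, rose by 0.72 ± 0.242 (SE; limma adjusted p = 0.0382) but did not pass without a filter (limma adjusted p = 0.0893). Fgf13, an intracellular channel-binding factor, rose by 0.56 ± 0.158 (SE; limma adjusted p = 0.0186). In dKO against cKO 4 of 7 fell (Ank3, Ank2, Nrcam and Cntn2), against 38.8% of all genes. In dKO against control 0 of 7 were called, against 1.79% of all genes higher and 3.4% lower. Without a filter 6 of 12 rose in cKO (Ank2, Nrcam, Cntn1, Fgf12, Fgf13 and Fgf14), against 11% of all genes. In dKO against cKO 5 of 12 fell (Ank2, Nrcam, Fgf11, Fgf12 and Fgf14), against 14.5% of all genes. Ank3, Nedd4l and Cntn2 thus lost their calls without a filter. After median-ratio rescaling 0 of 7 partners were called in any comparison, against 2.72% to 5.05% of all genes in each direction of a comparison.

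The genes most like each tested member across the 12 libraries were found by Pearson's r on median-shift-centred log2(TPM + 1) values, over 11763 other genes. The points share the 3 genotypes, and genes are not independent replicates, so these values are descriptions. For Scn2a they were Klf6 (r = 0.937), Sox2ot (r = 0.937) and Nucb2 (r = 0.927). For Scn3a they were Akap6 (r = 0.919), Nhlh2 (r = 0.916) and Zbtb38 (r = 0.903). For Scn3b they were Cdh13 (r = 0.969), Cacna2d3 (r = 0.966) and Macf1 (r = 0.964). Scn2a and Scn3a were near each other in this ranking, with r = 0.862 (the 22nd highest for Scn3a and the 29th for Scn2a). Scn3b was farther from both, with r = 0.73 to Scn3a and 0.669 to Scn2a. Klf6, closest to Scn2a, had 2.58 ± 0.196, 4.46 ± 0.362 and 3.06 ± 0.22 TPM in control, cKO and dKO, with dKO overlapping control. Cdh13, closest to Scn3b, had 1.70 ± 0.177, 3.78 ± 0.663 and 1.52 ± 0.424 TPM in that order.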

How the data were processed

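RNA of 12 embryonic pallia was profiled by stranded total RNA sequencing, per the labels' protocols. The authors deposited 1 table per library with a TPM value for each of 54735 gene symbols. The unit is inferred from the values, which are fractional and sum to 1000000. HISAT2 and the mm10 build are named in the submitters' processing notes. The quantification tool, the annotation and the treatment of shared or opposite-strand reads are not given in the sources used here, and depth is unknown.

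Groups came from the titles and genotypes. The test was limma 3.58.1 under R 4.3.3 (lmFit, eBayes with trend, 3 groups in 1 fit) on log2(TPM + 1), for the 11764 genes averaging 1 TPM or more, with Benjamini-Hochberg adjustment over all tested genes and a call at an adjusted p under 0.05. The fit without a filter covered 39624 genes. Fold changes on the log2(TPM + 1) scale understate changes of low genes. The filtered fit was also run on simulated data with normal noise and a set of genes raised in cKO. That simulation held no common shift and no genes under the filter, so it does not bear on either. Protein-coding rescaling gave nuclear protein-coding genes (GENCODE M21, where 54106 symbols matched) an equal sum per library. Median-ratio rescaling used 1 factor per library, the median ratio to the mean library, and was chosen after seeing the data, like the combinations of the fit without a filter with other settings. Other alternatives were quantile normalization, a pseudocount of 0.1, fits of 2 groups, median-shift centring, the replicate block, a filter at 5 TPM and leaving out each library. The named genes are all 8 members, the listed family, leak channel and partner genes (the 2 called genes of largest change per comparison), and the 3 most alike genes per tested member. Some listed genes are not reported here. Klf6 and Cdh13 were singled out after their values were seen. Members and lists were chosen with earlier results of these data known. No 2 libraries held identical values. Plots used matplotlib 3.10.9.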

Additional observations from a re-analysis of the deposited data

Results flagged for a closer look

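For each group of 4 embryos, the distance of the highest or lowest value from the next one, as a share of the group's range, was set against Dixon's critical value. Of 33 groups examined (the 8 genes, the alpha and beta sums and their ratio, in 3 genotypes), 4 had an embryo beyond it, where 1.65 are expected by chance.

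Scn2a in control had embryo 2 far above the others (0.921 TPM, ratio 0.909). Scn8a had embryo 2 high in cKO (1.56 TPM, ratio 0.839) and embryo 2 high in dKO (1.10 TPM, ratio 0.895). The alpha sum in dKO had embryo 1 low, at 4.09 TPM against 5.76 to 6.07 in the others (ratio 0.846). Without dKO embryo 2 the difference of Scn8a in dKO against cKO was -0.49 (limma adjusted p = 0.0268). Without control embryo 2 the cKO difference of Scn2a was 0.76, the highest value over all left-out embryos.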

How the results depend on the processing

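Calls over all genes in cKO against control went from 4163 to 1539 (protein-coding rescaling), 849 (median-ratio rescaling), 810 (quantile normalization) and 786 (median-shift centring), which alter the common shift, and to 1900 with the filter at 5 TPM, which does not. In dKO against control they went from 610 to 1080, 1059, 1029, 992 and 294 in the same order, and in dKO against cKO from 4636 to 1139, 816, 798, 698 and 2220. No member reached a mean of 5 TPM. Members called in cKO against control numbered 3 of 3 in the filtered fit under all settings but quantile normalization, where Scn3a was weaker (0.45, limma adjusted p = 0.056), and 6 of 8 without a filter, of which 2 were left after quantile normalization or median-ratio rescaling. In dKO against cKO, 3 of 3 became 1 under each of the 4 scalings, and 4 of 8 without a filter became 1 (quantile normalization), 2 (median-ratio rescaling) or 2 (protein-coding rescaling). There Scn2a was -0.15 after quantile normalization, -0.15 after centring, -0.24 after median-ratio and -0.30 after protein-coding rescaling, and Scn3a -0.14, -0.16, -0.17 and -0.26. Scn3b kept its direction and side of the threshold in all 60 alternatives over the 3 comparisons. Leaving out 1 embryo gave 2421 to 4372, 346 to 700 and 3022 to 4814 calls over all genes. Moves of over 1.5 times came without cKO 2 (2421), cKO 4 (2476) or control 2 (2677) in cKO against control, without control 4 (346), control 3 (354) or dKO 3 (405) in dKO against control, and without cKO 4 (3022) or cKO 2 (3036) in dKO against cKO. It also gave 0 to 1 member called in dKO against control, where Scn3a ran from 0.24 to 0.41. Reversed directions were 0.0054 and 0.0016 for Scn8a in dKO against control without control embryo 1 or dKO embryo 4, and 0.0208 for Scn2b in dKO against cKO after quantile normalization. Replicate numbers repeat across genotypes, but same-numbered embryos did not deviate together (0 of 12 pairs with r over 0.1, from -0.0954 to 0.0745). With the replicate block, calls over all genes were 2979, 409 and 3608, and members called 3, 0 and 3. Depth is unknown, so no limit of detection can be given, and levels under 0.1 TPM (Scn4b, Scn9a in control) are the least certain.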
